A study of Mus musculus with 7 samples.

Results

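The 8 genes followed here set where a B cell sits in the spleen, and whether it leaves, and they were measured in memory B cells (MBCs) and plasma cells (PCs): S1pr1, S1pr2, S1pr3, S1pr4, Gpr183, Cd69, Gna13 and Arhgef1. They were listed by name for these roles and are 8 of the 48795 genes in the deposited table. All 8 were listed. The data are bulk RNA sequencing of spleen cells from female wild-type C57BL/6 mice, 8 to 12 weeks old, at day 10 after sheep red blood cells were given intravenously. Both groups come from such mice, and both were enriched with CD43 MicroBeads before flow sorting. The 3 MBC libraries hold B220+ cells that lacked CD138 and IgD and carried CD38 and CD273. The 4 PC libraries hold B220lo cells that carried CD138 and lacked IgD. The labels do not say whether replicates are separate animals or pools, so each p measures only the spread between these libraries.

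Sphingosine 1-phosphate (S1P) is a lipid that is abundant in blood and lymph and scarce inside lymphoid tissue, and cells read this gradient with a family of G protein-coupled receptors. S1pr1 couples to Gi and draws cells toward S1P and out of the organ, whereas S1pr2 couples to Gna13 and Arhgef1 and holds germinal center (GC) B cells in the follicle. Gpr183 (EBI2) senses oxysterols and guides activated B cells to the edge of the follicle, and Cd69 binds S1pr1 and takes it off the surface.

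Levels are given as scaled TPM. TPM counts the reads of a gene per length of its transcripts and is therefore comparable between genes of 1 library. The authors' TPM was divided here by 1 factor per library, because immunoglobulin transcripts took 49.4 to 55.9% of the TPM of the PC libraries and 1.65 to 3.16% of that of the MBC libraries. Fold changes are differences of log2(scaled TPM + 1), PC minus MBC, from limma, and a gene was called at an adjusted p under 0.05 and a change of at least 1 on that scale. TPM of 1 of a 1 kb transcript was worth an estimated 6.21 to 16.4 reads, and MBC replicates 1 and 2 were the shallowest.

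The libraries of the MBC group differed from each other, and MBC replicate 3 stood apart from the other two in most of what follows. The correlation r between libraries was 0.6753 for MBC replicates 1 and 2, and 0.6873 and 0.6811 for these with MBC replicate 3. MBC replicates 1 and 2 were thus no more alike than either was to MBC replicate 3. MBC replicate 3 was closer to every PC library (r = 0.7001 to 0.7771) than to any MBC library. For MBC replicates 1 and 2 with PCs r was 0.5371 to 0.5643. Genes above 0 numbered 12983, 11527 and 18061 in MBC replicates 1 to 3 and 14463 to 16768 in PCs. In MBC replicate 3, Cd38, the gene of a marker used to sort MBCs, stood at 6.77 scaled TPM, against 130.3 and 185.7 in the other two MBC libraries and 9.89 to 21.3 in PCs. The CD273 gene Pdcd1lg2 stood at 2.59 there, against 43.3 and 24.4, with 0 to 2.84 in PCs. The PC marker Sdc1 (CD138) was at 0.0585 in that library and at 49.6 to 78.1 in PCs. Ighd, the gene of IgD, which both gates lacked, stood at 85.8, 39.9 and 9.55 in MBC replicates 1 to 3 and at 14.2 to 38.8 in PCs, so that MBC replicates 1 and 2 were above all PC libraries and MBC replicate 3 below them. Mitochondrial genes took 33.2, 33.5 and 19.7% of the TPM of MBC replicates 1 to 3 and 8.10 to 9.80% of that of PCs. The 7 GC B cell markers of MBC replicate 3 summed to 672.9, against 237.4 and 270.1 in the other two MBC libraries and 89.4 to 159.9 in PCs. Its 10 proliferation markers summed to 1102.1, against 202.8 and 221.3, with 546.6 to 800.7 in PCs. Mybl1 was the largest part of the GC marker sum in each MBC library, at 164.7, 197.3 and 336.2, and stood at 25.8 to 69.3 in PCs. Over all libraries 1 of the 7 GC markers was called lower in PCs and none higher, and without MBC replicate 3 it was 1 lower and 1 higher. Of all tested genes 2.14% were called lower and 6.41% higher, and 7.94% and 13.8% without MBC replicate 3. MBC replicate 2 carried erythroid markers summing to 4524.0, against at most 122.1 elsewhere. The 8 T cell markers summed to 0, 0 and 2.19 in the MBC libraries and to 74.2 to 90.8 in PCs. Of the 4 tested, Cd28, Cd3e and Trac were called higher in PCs and none was called lower. Of all tested genes 6.41% were called higher. These 3 did not exceed 1.35 TPM as deposited in MBCs and reached 1 TPM in every PC library. They thus entered the test through the PC libraries, and the calls are descriptions. Most of the T cell sum in PCs was Cd28 (41.9 to 55.7), which PCs are known to express, while Cd3e stood at 3.86 to 14.2 and Trac reached 23.1. T cells carry S1pr1, S1pr4 and Cd69 as well. The part of these features in the results was not tested, and values without MBC replicate 3 stand beside each result that it touches.

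The receptor that differed in all 3 MBC libraries was S1pr3, an S1P receptor that couples to several G proteins and is known in the spleen from marginal zone B cells. The gene (ENSMUSG00000067586, chr13:51408639-51422797, plus strand, GRCm38) spans 2 exons. S1pr3 stood at 9.22, 20.7 and 8.99 scaled TPM for MBC replicates 1 to 3 and at 1.38, 1.34, 0.824 and 1.38 in PC replicates 1 to 4. Every MBC library was above every PC library, and the MBC mean was 10.5-fold the PC mean. On the log2 scale S1pr3 was 2.56 lower in PCs (log2 fold change -2.56 ± 0.51 SE, 95% interval -3.70 to -1.41, adjusted p = 0.0139). An estimated 26.5 to 69.0 reads stood behind each PC value, so the transcript was low in PCs but above the floor of 3 reads. No PC library reached 1 TPM as deposited, so the gene entered the test through its MBC libraries alone. When every gene above 0 was tested the adjusted p was 0.0437. With 1 PC library left out the call was lost without replicate 2, 3 or 4 (adjusted p = 0.0586, 0.0534 and 0.0538). It was also lost with the title codes shared by both groups as a replicate block, which leaves out PC replicate 2 (adjusted p = 0.102). The change was -2.75 without MBC replicate 3 (adjusted p = 0.0107).

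Marginal zone B cells are rich in S1pr3, so their markers were read in the same libraries. The 4 markers summed to 106.4, 271.9 and 83.8 in MBC replicates 1 to 3 and to 12.9 to 26.0 in PCs. None was at 0 in all libraries, and 1 of the 4, Cr2 (the complement receptor CD21, also on follicular B cells), was called lower in PCs. Of all tested genes 2.14% were called lower. Cr2 made up most of the sum in each MBC library, at 80.5, 148.2 and 63.8, and stood at 3.64 to 7.19 in PCs. Dtx1 was at 24.2, 53.7 and 19.3 in MBCs and at 4.16 to 15.1 in PCs. Cd1d1 was at 0.291, 50.6 and 0.107 in MBCs and at 0.173 to 4.74 in PCs, so 1 MBC library alone was high. The same library alone was high for Myof, at 1.47, 19.4 and 0.629 in MBCs and 1.46 to 3.21 in PCs. Endothelial cells also carry S1P receptors, and their 5 markers summed to 0, 0 and 0.21 in the MBC libraries and to 0.544 to 2.55 in PCs. The part of marginal zone B cells and of endothelial cells in the S1pr3 values was not tested. In bulk libraries, fewer cells with a transcript and less of it per cell cannot be told apart.

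S1pr1, the egress receptor, was high in 2 MBC libraries and lowest of all in the third. S1pr1 (ENSMUSG00000045092, chr3:115710433-115715072, minus strand) also has 2 exons. It stood at 31.9, 48.4 and 1.19 scaled TPM for MBC replicates 1 to 3 and at 7.86, 10.9, 7.58 and 8.71 in PC replicates 1 to 4. The PC libraries lay close together, between the high MBC libraries and MBC replicate 3. Over all 7 libraries the change did not pass the test (log2 fold change -0.66 ± 0.94 SE, 95% interval -2.77 to 1.45, adjusted p = 0.717). Without MBC replicate 3, S1pr1 was called lower in PCs (-2.06 ± 0.38 SE, adjusted p = 0.00956), and the mean of the other two MBC libraries was 4.58-fold the PC mean. Without MBC replicate 2 the sign turned (0.19). An estimated 78.6 reads of S1pr1 stood behind the value of MBC replicate 3.

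S1pr2, the receptor that confines GC B cells, ran the other way in the MBC libraries. Its gene lies on the minus strand (ENSMUSG00000043895, chr9:20962361-20976781). It stood at 8.36, 0.0404 and 43.7 scaled TPM for MBC replicates 1 to 3, and at 7.77, 9.16, 14.05 and 12.7 in PC replicates 1 to 4. MBC replicate 3, lowest for S1pr1, was the highest for S1pr2, and MBC replicate 2, highest for S1pr1, was the lowest for S1pr2. The value of MBC replicate 2 was worth an estimated 2.53 reads of the longest transcript and lay under its floor of 0.048, so the transcript was not detectable there at this depth. The groups overlapped, and the interval of the change was wide (log2 fold change 0.62 ± 1.05 SE, 95% interval -1.72 to 2.97, adjusted p = 0.762). It was 1.90 without MBC replicate 3 (adjusted p = 0.145), and without MBC replicate 2 it was -0.81.

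S1pr4, a receptor of lymphoid cells whose part in B cell traffic is less settled, did not separate the groups. Its gene is 1 exon (ENSMUSG00000044199, chr10:81497747-81500132, minus strand). It stood at 2.90, 3.83 and 3.95 scaled TPM in the MBC libraries and at 0.0944, 5.63, 2.41 and 6.18 in PC replicates 1 to 4. PC replicate 1 had an estimated 1.92 reads, under its floor of 0.148, while PC replicates 2 and 4 exceeded every MBC library. The change was -0.31 ± 0.70 SE on the log2 scale (95% interval -1.89 to 1.26, adjusted p = 0.825), and 0.27 without PC replicate 1. S1pr5, the receptor known from natural killer cells, was listed at 0 in all 7 libraries.

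**Figure D1:**
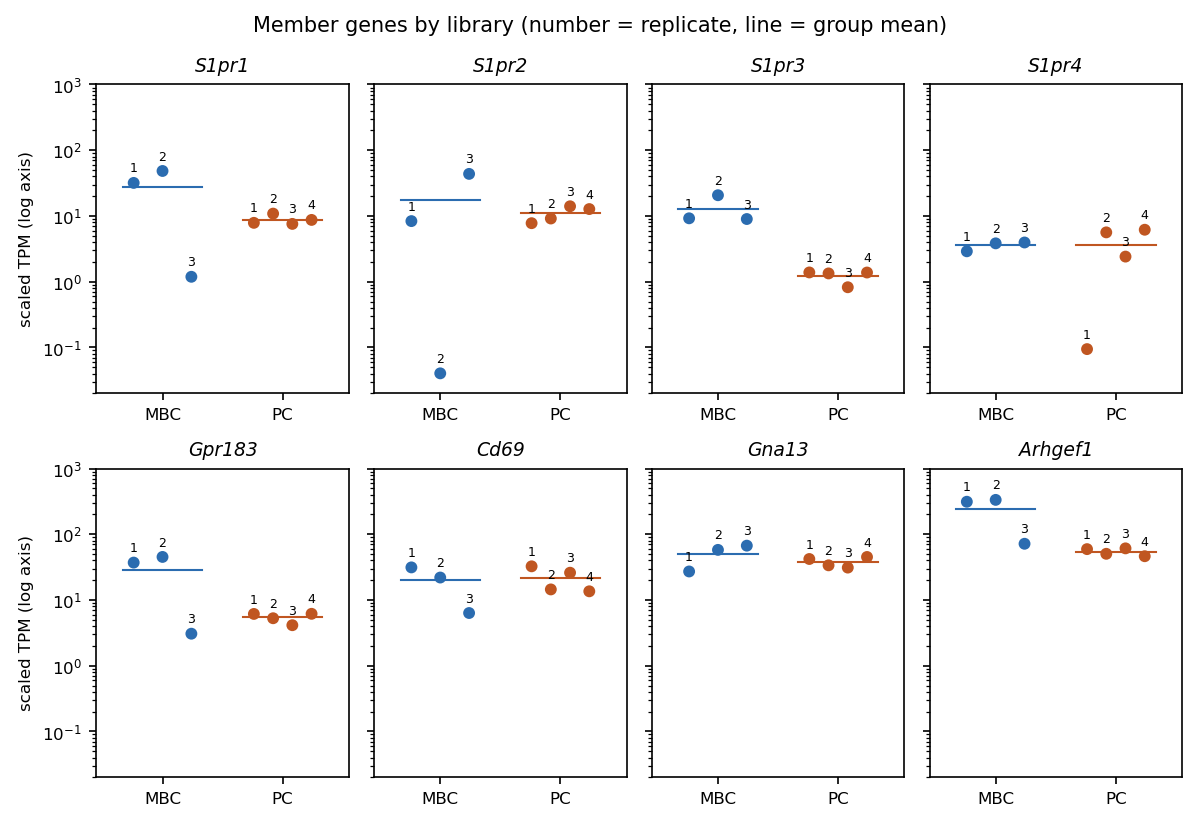
Scaled TPM of the 8 genes (log axis) in each library, with MBCs in blue and PCs in orange, replicate numbers above the points and a line at each group mean. S1pr3 and Arhgef1 are the genes whose groups do not overlap, and MBC replicate 3 lies at 1.19 for S1pr1 and 3.07 for Gpr183, below every PC library.

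The make-up of the S1P receptor pool varied from library to library. S1pr1 made up 60.9 and 66.3% of the summed S1P receptor TPM in MBC replicates 1 and 2, 2.06% in MBC replicate 3, and 30.0 to 46.0% in PCs. S1pr2 made up 15.97, 0.0554 and 75.6% in MBC replicates 1 to 3 and 33.9 to 56.5% in PCs. Together S1pr1 and S1pr2 formed most of the pool in every library of both groups. S1pr3 made up 15.5 to 28.4% in MBCs and 3.32 to 8.09% in PCs, with no overlap. S1pr4 reached 20.9 and 21.3% in PC replicates 2 and 4 but 0.551% in PC replicate 1, and 5.26 to 6.83% in MBCs. Added up, the receptors reached a mean of 61.0 ± 10.7 scaled TPM over the 3 MBC libraries and of 24.5 ± 5.20 over the 4 PC libraries (± SD). The lowest MBC library summed to 52.3 and the highest PC library to 29.0, so the pool was larger in every MBC library, whichever receptor led it. These shares are descriptions without a test.

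**Figure D2:**
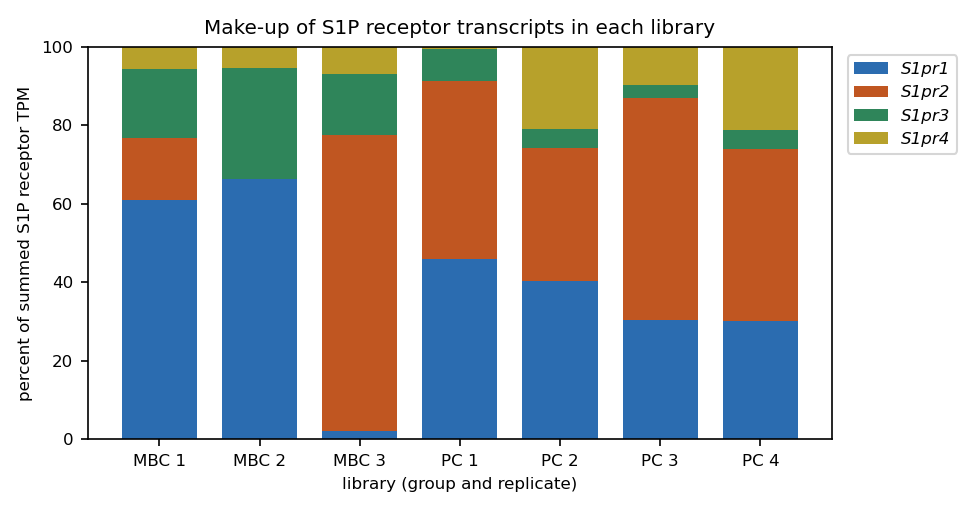
Percent of the summed TPM of the S1P receptor genes taken by S1pr1, S1pr2, S1pr3 and S1pr4 in each of the 3 MBC and 4 PC libraries (stacked bars from 0 to 100). S1pr1 leads MBC replicates 1 and 2 (60.9 and 66.3%), S1pr2 leads MBC replicate 3 (75.6%), and in PCs S1pr1 takes 30.0 to 46.0% and S1pr2 33.9 to 56.5%.

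Gpr183 followed S1pr1 rather than S1pr2 across the MBC libraries. Its gene lies on the minus strand too (ENSMUSG00000051212, chr14:121952551-121965195). It stood at 37.0, 45.2 and 3.07 scaled TPM for MBC replicates 1 to 3 and at 6.13, 5.28, 4.13 and 6.16 in PC replicates 1 to 4. Again 2 MBC libraries were far above all PC libraries and MBC replicate 3 was below them. The change did not pass the test over all libraries (log2 fold change -1.60 ± 0.80 SE, 95% interval -3.38 to 0.19, adjusted p = 0.257). Gpr183 was called lower in PCs once MBC replicate 3 was left out (-2.72 ± 0.40 SE, adjusted p = 0.00367), with a mean in the other two MBC libraries 7.58-fold that of PCs. Gpr183 lies inside Ubac2 on the opposite strand and shares 0 exon bases with it. Deposited TPM of Ubac2 was 23.5, 4.67 and 19.6 in the MBC libraries and 1.91 to 9.11 in PCs, and its part in the Gpr183 values was not tested.

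The sequences before the starts of 3 of these receptor genes are shown because the genes ran in 3 different patterns across the MBC libraries and have an entry in the RefSeq promoter table, which matched 6 of the 8 genes. Each runs 5′ to 3′ on the strand of its gene, from base 250 to base 11 before the RefSeq start (GRCm38.p6). S1pr2 is read from chr9:20976804-20977043 (minus strand), S1pr3 from chr13:51408368-51408607 (plus strand) and Gpr183 from chr14:121965204-121965443 (minus strand), and none of the 3 windows meets an annotated exon of its gene. Capitals mark matches, on either strand, to CACCC (bound by KLF factors) and CACCTG (bound by E proteins), which open with the same letters and cannot both match at 1 place on 1 strand.
S1pr2: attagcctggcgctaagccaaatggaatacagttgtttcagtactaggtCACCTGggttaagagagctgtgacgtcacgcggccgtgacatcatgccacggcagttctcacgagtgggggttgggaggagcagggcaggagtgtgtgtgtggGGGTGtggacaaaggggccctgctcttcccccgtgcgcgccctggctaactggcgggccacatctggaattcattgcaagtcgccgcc
S1pr3: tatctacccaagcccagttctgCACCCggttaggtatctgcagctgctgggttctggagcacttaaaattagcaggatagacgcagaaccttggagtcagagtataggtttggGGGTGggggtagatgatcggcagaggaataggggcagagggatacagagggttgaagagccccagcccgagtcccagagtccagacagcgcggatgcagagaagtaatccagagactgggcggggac
Gpr183: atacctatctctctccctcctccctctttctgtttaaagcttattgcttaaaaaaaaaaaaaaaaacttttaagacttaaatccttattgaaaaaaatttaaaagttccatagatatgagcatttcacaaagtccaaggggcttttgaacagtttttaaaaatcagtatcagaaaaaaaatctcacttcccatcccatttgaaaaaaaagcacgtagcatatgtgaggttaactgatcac
The S1pr2 window held 1 CACCC match, at base 98 before the start, and 1 CACCTG match, at base 201. The S1pr3 window held 2 CACCC matches, at bases 228 and 137. Gpr183 had neither, and no window of the 3 held TGTTTAC (FOXO factors) or GAAAGT (Blimp-1, the product of Prdm1). Among 32851 promoters of the same length, 50.6% held CACCC, 16.6% CACCTG, 3.06% TGTTTAC and 11.8% GAAAGT, so a CACCC match is common. The Gpr183 window was poor in G and C (30.8%, 1 CpG), against 59.6% and 13 CpGs for S1pr2, 55.8% and 7 CpGs for S1pr3, and medians of 52.1% and 5 CpGs over all promoters. These matches are descriptions of letters, and the data hold no measure of binding.

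Cd69, the early activation antigen that opposes S1pr1 at the protein level, did not differ detectably between the groups. The Cd69 gene has 5 annotated transcripts (ENSMUSG00000030156, chr6:129267325-129275436, minus strand). It stood at 31.3, 21.95 and 6.33 scaled TPM for MBC replicates 1 to 3 and at 32.5, 14.5, 26.0 and 13.6 in PC replicates 1 to 4. The ranges overlapped almost fully, and MBC replicate 3 was once more the lowest library. The change was 0.27 ± 0.58 SE on the log2 scale (95% interval -1.02 to 1.57, adjusted p = 0.815), and -0.36 without MBC replicate 3 (adjusted p = 0.622). Cd69 was above S1pr1 in all 4 PC libraries and in MBC replicate 3, and below it in MBC replicates 1 and 2, by a small margin in replicate 1.

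Of the 2 signalling genes, Arhgef1 separated the groups and Gna13 did not. Arhgef1 encodes a guanine nucleotide exchange factor (Lsc) that acts downstream of Gna13 and is needed for the retention of marginal zone and GC B cells. Its gene has 19 annotated transcripts (ENSMUSG00000040940, chr7:24902912-24926594, plus strand). It stood at 312.2, 333.2 and 71.6 scaled TPM for MBC replicates 1 to 3 and at 59.4, 50.4, 61.0 and 46.3 in PC replicates 1 to 4. The groups did not overlap, but MBC replicate 3 lay nearer to the PCs than to the other two MBC libraries. The change over all libraries just missed the threshold (log2 fold change -1.84 ± 0.52 SE, 95% interval -3.004 to -0.68, adjusted p = 0.0598). Without MBC replicate 3 Arhgef1 was called lower in PCs (-2.56 ± 0.27 SE, adjusted p = 9.34e-04), at a mean in the other two MBC libraries 5.95-fold that of PCs. It was also called in 6 other of the 19 alternative settings, among them all 3 other scalings of the libraries. 1 of these is the TPM as deposited, where the median change of all genes was -0.91 and 3018 genes were called lower. With any 1 library other than MBC replicate 3 left out, the adjusted p was between 0.120 and 0.177. When every gene above 0 was tested it was 0.163.

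Gna13 encodes the alpha subunit that links S1pr2 to Arhgef1. Its gene has 2 annotated transcripts (ENSMUSG00000020611, chr11:109362831-109401369, plus strand). It stood at 27.1, 57.8 and 67.1 scaled TPM for MBC replicates 1 to 3 and at 42.0, 33.7, 31.1 and 45.1 in PC replicates 1 to 4. Both ends of the range were MBC libraries, with the PCs in between. The change was -0.33 ± 0.40 SE (95% interval -1.21 to 0.56, adjusted p = 0.664), and it stayed uncalled in all alternatives except the TPM as deposited. Gna13 shares 151 exon bases with the antisense gene Gm11696, at 0 to 7.57 TPM as deposited, and S1pr3 shares 45 with Gm32834. Whether the counting used strand is not given in the sources used here.

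Over the 8 genes, 1 was called lower in PCs (S1pr3) and none higher, with 2 and 0 at an unadjusted p under 0.05 in limma. Of all 11573 tested genes 8.55% were called, 2.14% lower and 6.41% higher. At an unadjusted p under 0.05 in limma, in either direction, were 2803 of all tested genes, and 4189 without MBC replicate 3. In 2 of the 8 the libraries had groups that did not overlap, a share near that of all tested genes (21.7%). Without MBC replicate 3, 4 of the 8 were called lower (S1pr1, S1pr3, Gpr183 and Arhgef1) and none higher, with 4 and 0 at an unadjusted p under 0.05, where 7.94% of all tested genes were called lower and 13.8% higher. The groups of 4 of the 8 then did not overlap, against 43.7% of all genes. The median change of the 8 was -0.49 over all libraries and -1.21 without MBC replicate 3, beside 0.14 and 0.19 for all genes. S1pr3 passed the filter on low values only through its MBC libraries, so these counts are descriptions.

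**Figure D3:**
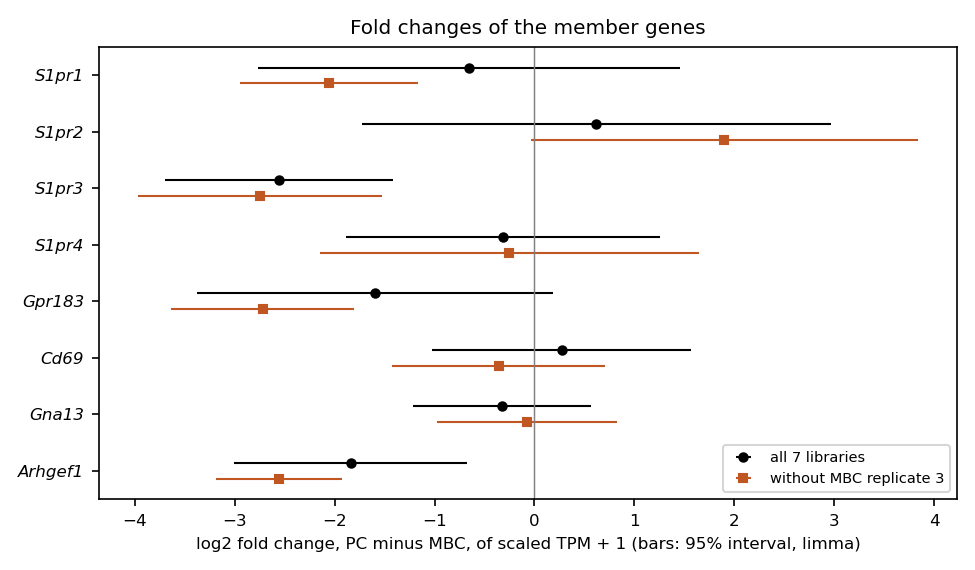
Log2 fold change (PC minus MBC, scaled TPM + 1) of each gene with its 95% interval from limma, for all 7 libraries (black circles) and without MBC replicate 3 (orange squares). Leaving out that library narrows the intervals of S1pr1, Gpr183 and Arhgef1 and moves those of S1pr1 and Gpr183 below 0, while those of S1pr3 and Arhgef1 are below 0 in both.

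The labels carry a title code whose meaning they do not give. MBC replicate 1 shares its code with PC replicate 1, and MBC replicate 2 with PC replicate 3. MBC replicate 3 and PC replicate 4 share a code and a prefix that no other library has. Between these libraries S1pr1 was 1.19 in MBC replicate 3 and 8.71 in PC replicate 4, and Gpr183 was 3.07 and 6.16, the reverse of the order among the others. S1pr3 was 8.99 and 1.38, the same order as among the others. Within the 5 libraries of the more frequent prefix, 4 genes were called lower in PCs: S1pr1 (-2.06, adjusted p = 0.0381), S1pr3 (-2.78, adjusted p = 0.042), Gpr183 (-2.77, adjusted p = 0.0177) and Arhgef1 (-2.49, adjusted p = 0.00568). Of all 11573 tested genes 417 were called lower and 873 higher there. The other prefix holds 1 library per group and allows no test.

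In order of level, Arhgef1 led in both groups, with means of 239.0 scaled TPM in MBCs and 54.3 in PCs, and its range did not overlap that of Gna13, the next gene. In PCs Gna13 (38.0), Cd69 (21.6), S1pr2 (10.9) and S1pr1 (8.76) followed, each overlapping its neighbour. The range of S1pr1 lay above that of Gpr183 (5.43), and Gpr183 overlapped S1pr4 (3.58), which in turn overlapped S1pr3 (1.23). In MBCs the means of Gna13 (50.7), Gpr183 (28.4), S1pr1 (27.1), Cd69 (19.9), S1pr2 (17.4) and S1pr3 (12.97) followed, each with a range that overlapped that of its neighbour, although every Gna13 value lay above every S1pr3 value. S1pr4 (3.56) was last in MBCs, and its range lay below that of S1pr3.

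The genes most like each receptor in pattern were sought among 11572 other tested genes by Pearson's r of log2(scaled TPM + 1) over the 7 libraries, which fall into 2 groups and include MBC replicate 3. For S1pr1 they included Myl12b (a myosin light chain, r = 0.993) and Tlr7 (a sensor of RNA, 0.981). Gpr183 was most like Cd38 (0.994), Marcks (0.989) and Itgb7 (an integrin beta chain, 0.989). S1pr2 was most like Mcm5 (a subunit of the replicative helicase, 0.994), Slbp (the histone mRNA binding protein, 0.98) and Hmgb3 (0.98). Mcm5 stood at 10.7, 1.21 and 33.3 scaled TPM for MBC replicates 1 to 3 and at 10.5 to 16.9 in PCs, the same order as S1pr2 in the MBC libraries. S1pr3 was most like Ablim1 (0.995), Ciita (the master regulator of MHC class II genes, 0.992) and Cd83 (an activation marker, 0.991). Ciita stood at 50.1, 94.0 and 29.7 in MBCs and at 1.66 to 2.44 in PCs. For Arhgef1 the nearest gene was Gm37127 (0.998), followed by Dynlt1c (0.993) and Ccdc93 (0.993). For Cd69 they were Ppfibp2 (0.9754), Araf (0.97) and Klf3 (0.968), for S1pr4 Opa1 (0.988), Gm8226 (0.97) and Men1 (0.971), and for Gna13 Raly (0.96), Cct4 (0.94) and Rfc3 (0.931). Picked as the highest of so many over so few points, these are descriptions without a test.

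No gene of S1P metabolism was called, and no listed gene of the oxysterol ligand passed the filter on low values. Of 12 genes for S1P synthesis, breakdown and export, 7 were tested and none was called in either direction, with none at an unadjusted p under 0.05 in limma. Of all 11573 tested genes 8.55% were called and 2803 had such a p, so no call among 7 genes says little. Sphk2, 1 of the sphingosine kinases that make S1P, stood at 0.0384, 3.46 and 4.02 scaled TPM in MBCs and at 6.95, 4.74, 5.30 and 6.55 in PCs. All PC libraries were above all MBC libraries, but the change did not pass the test (log2 fold change 1.26, adjusted p = 0.267). Sgpl1, the lyase that degrades S1P, stood at 19.6, 24.2 and 9.52 in MBCs and at 8.94 to 13.5 in PCs (-0.60, adjusted p = 0.451). The other kinase gene, Sphk1, was under 0.1 in MBCs, at 0.802 in PC replicate 1 and at 0 in the other PC libraries. Of the 4 oxysterol genes none was tested. Ch25h and Cyp7b1, which make the Gpr183 ligand, were listed at 0 in all libraries, and Hsd3b7, which removes it, did not exceed 0.263. Cyp27a1, a sterol hydroxylase, stood at 0.203 in MBC replicate 1, was at least 3.52 in the other two MBC libraries and did not exceed 0.342 in PCs.

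The other receptors and the G proteins showed no called change. Of 14 other sphingolipid and lysophospholipid receptors 6 were tested and 0 called, with 0 at an unadjusted p under 0.05. Of 8 G protein alpha subunits 6 were tested and 0 called, with 1 higher and 2 lower at an unadjusted p under 0.05. Of all 11573 tested genes 8.55% were called, and 2803 were at an unadjusted p under 0.05 in limma. Counts out of 6 genes therefore say little. Gnai2, the Gi subunit that transmits S1pr1 and chemokine signals, stood at 134.9, 164.6 and 169.5 scaled TPM in MBCs and at 102.4, 94.2, 84.8 and 103.2 in PCs. Every MBC library was higher, by a small margin (log2 fold change -0.69, adjusted p = 0.169). Gna12, the relative of Gna13, stood at 6.43, 4.91 and 6.32 in MBCs and at 1.31, 2.48, 1.19 and 2.86 in PCs (-1.25, adjusted p = 0.151). Gna12, unlike Gna13, had groups that did not overlap, though it missed the threshold as well.

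Among the regulators of receptor signalling, 15 of 17 listed symbols were in the table and 11 were tested. Of these 1 rose and 1 fell, where 6.41% and 2.14% of all tested genes did. Rgs10, a GTPase activator for Gi, stood at 0.351, 1.44 and 13.5 scaled TPM in MBCs and at 22.6, 26.1, 23.2 and 25.7 in PCs. The PC libraries were tight and MBC replicate 3 was again the closest to them (log2 fold change 2.80 ± 0.74 SE, adjusted p = 0.0459). The call of Rgs10 held in 5 of the 19 alternatives, and it was lost when any 1 library other than MBC replicate 3 was left out (adjusted p between 0.105 and 0.126). Rgs2, a regulator of Gq signalling, stood at 55.7, 43.6 and 92.7 in MBCs and at 9.23, 19.5, 17.9 and 24.7 in PCs (-1.79 ± 0.44 SE, adjusted p = 0.0347), and held in 7 of 19. Its call was lost without MBC replicate 1 (adjusted p = 0.0714) or any 1 PC library (adjusted p between 0.0589 and 0.0896). Rgs1, which limits the response to chemokines, stood at 6.76, 5.07 and 6.79 in MBCs and at 5.19 to 9.08 in PCs (0.17, adjusted p = 0.849), and its sign turned under all 3 other scalings. Without MBC replicate 3, Grk2, a kinase that desensitizes S1pr1, was called lower (-1.12, adjusted p = 0.0273), and it was singled out after its values were seen.

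The factors tied to receptor expression included the clearest changes. All 13 were tested, 2 rose and 3 fell in PCs, where 6.41% and 2.14% of all tested genes did. For this list 6 genes had groups that did not overlap, against 21.7% of all tested genes. The list holds Prdm1, Irf4, Pax5 and Bach2, which set the PC and B cell states that were sorted apart. It also holds chemokine receptors. The counts are therefore descriptions and say nothing about the control of the S1P receptors or Gpr183. Prdm1 and Irf4, which drive PC differentiation, rose by 5.04 ± 0.69 SE (adjusted p = 0.00172) and 3.45 ± 0.39 SE (adjusted p = 5.36e-04) on the log2 scale. Pax5 and Bach2, which hold the B cell program, changed by -3.46 ± 0.60 SE (adjusted p = 0.00632) and -2.08 ± 0.34 SE (adjusted p = 0.00484). Cxcr5, the receptor that brings B cells into follicles, stood at 91.9, 142.2 and 42.6 scaled TPM in MBCs and at 6.06, 8.12, 5.89 and 11.4 in PCs. Its change, -3.28 ± 0.48 SE (adjusted p = 0.00247), held for every MBC library: MBC replicate 3 was above all PC libraries for Cxcr5 and below them for S1pr1 and Gpr183.

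Klf2, unlike Cxcr5, was below all PC libraries in MBC replicate 3, as S1pr1 was. Klf2, a transcription factor that induces S1pr1, stood at 32.4, 29.2 and 1.26 scaled TPM for MBC replicates 1 to 3 and at 11.5, 4.80, 12.4 and 3.15 in PC replicates 1 to 4. MBC replicate 3 was the lowest library and MBC replicates 1 and 2 were the highest. Among the PC libraries the orders differed: PC replicate 3 was the highest for Klf2 and the lowest for S1pr1. Over all libraries Klf2 was not called (log2 fold change -0.73, adjusted p = 0.686). With MBC replicate 3 left out it was called lower in PCs (-1.997, adjusted p = 0.044). Foxo1, a factor upstream of Klf2 and S1pr1 in lymphocytes, stood between 28.5 and 34.0 in all 7 libraries (-0.01, adjusted p = 0.985).

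**Figure D4:**
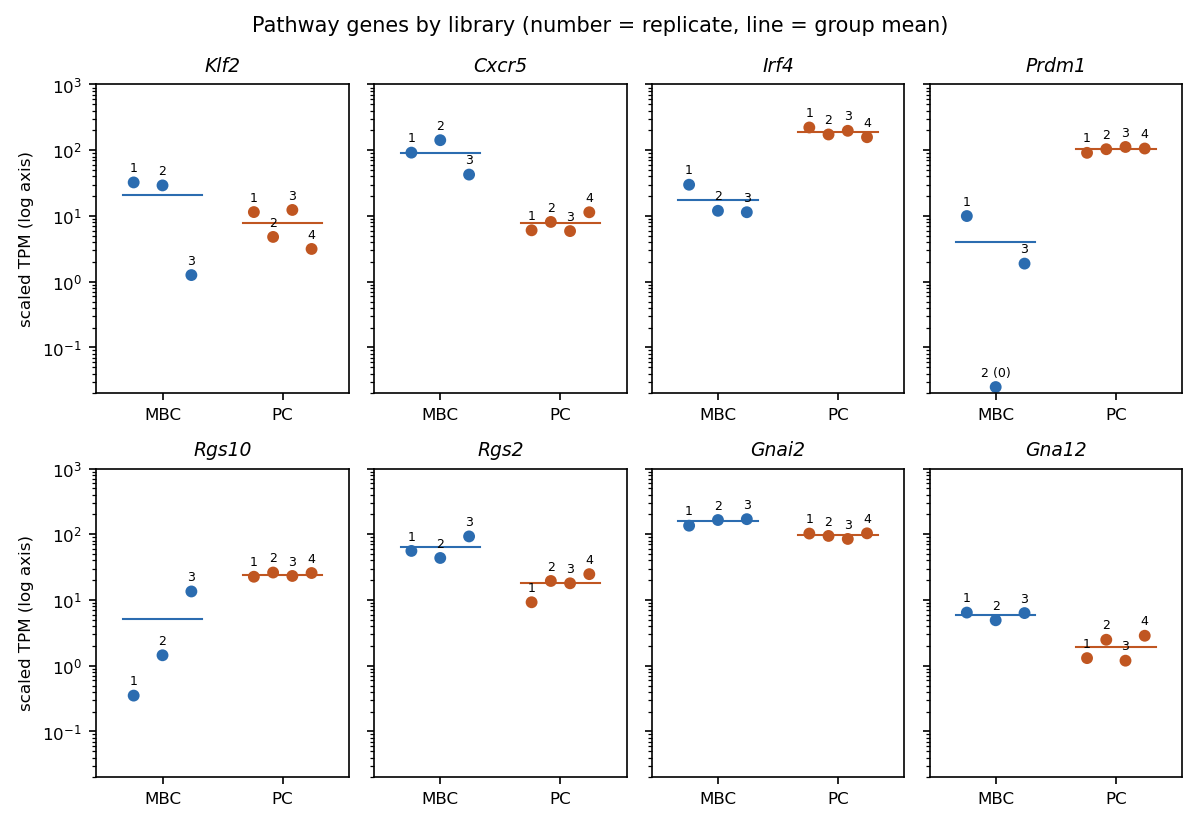
Scaled TPM (log axis) of 8 genes from the pathway lists in each library, with MBCs in blue and PCs in orange, replicate numbers above the points and a line at each group mean; a library at 0 is drawn at the bottom and marked (0). Klf2 (1.26) is lowest in MBC replicate 3, as S1pr1 is, while Cxcr5 (42.6) and Rgs2 (92.7) are above all PC libraries there.

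**Figure D5:**
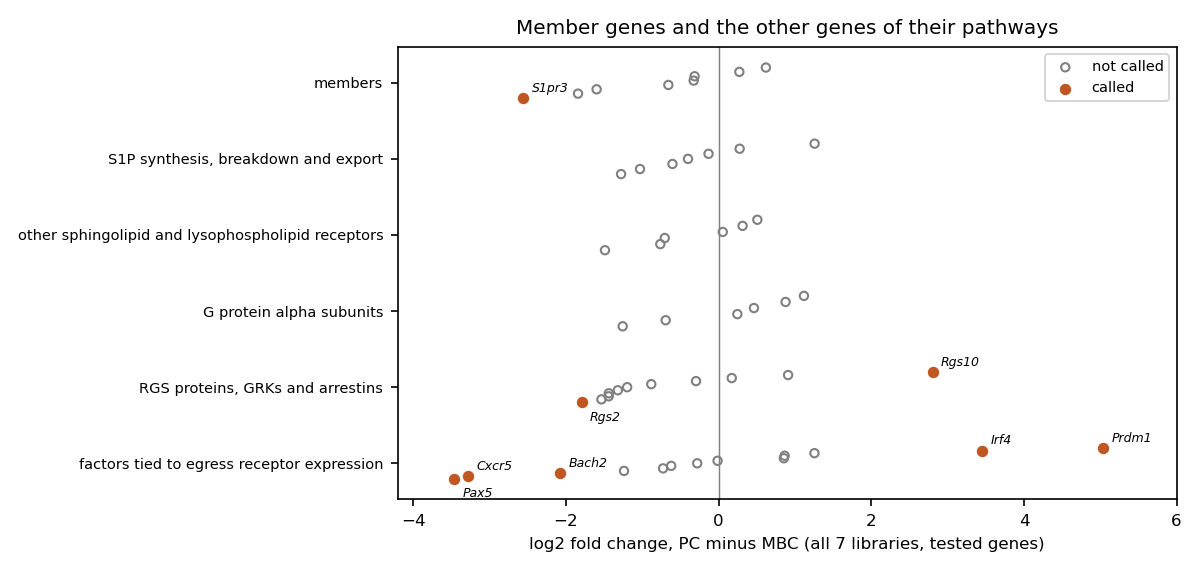
Log2 fold change (PC minus MBC, all 7 libraries) of each tested gene, by list, with called genes filled and named. Called genes lie in the members (S1pr3), the RGS list (Rgs10 2.80, Rgs2 -1.79) and the factor list.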

How the data were processed

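Bulk RNA of 3 MBC and 4 PC libraries was measured after amplification with a Nugen cDNA kit, and groups and replicate numbers came from the sample descriptions. The authors deposited TPM for 48795 genes, rounded to 2 decimals. The submitters' processing notes name STAR 2.5.2a, RSEM 1.3.0, DESeq2 1.18.1 and GRCm38, without their roles. Symbols and gene places came from GENCODE M21, which matched 48349 genes. No library was a copy of another.

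To scale the libraries, the ratio of each TPM to the geometric mean of its gene was taken for 9305 genes that no library listed at 0, and a library was divided by the median of its ratios. A pseudocount of 1 was added before taking log2. Tested were the 11573 genes with 1 TPM or more as deposited in 3 or more libraries, by limma 3.58.1 under R 4.3.3 (lmFit, eBayes with trend, two-sided, Benjamini-Hochberg adjustment over all tested genes), over all 7 libraries without a covariate. The body of the study states no test for these libraries. This scale understates the change of low genes. The procedure was tested on simulated data. Python 3.11.15, pandas 2.3.3 and numpy 2.4.6 served the other steps.

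TPM holds no read totals, so the worth of 1 read was estimated from low values of genes with 1 annotated transcript: 78.3 to 84.3% of these came within 0.15 reads of a whole number, and coincidence alone would give 30%. The floor of 3 reads covers counting error only.

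The 8 genes and the lists of related genes were chosen with earlier results of these data known. Named genes are the 8, the called genes of each list, and up to 4 uncalled genes per list with a direct role. The alternatives were 4 other filters, pseudocounts and moderation, 3 other scalings, leaving out each library, 1 title prefix alone, replicate blocks, a prefix term and library weights. Some genes of the lists are not reported here.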

Additional observations from a re-analysis of the deposited data

Results flagged for a closer look

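S1pr3 stood apart in PC replicate 3, where it was at 0.824 scaled TPM, while the other PC libraries lay between 1.34 and 1.38. The gap to the nearest library was 0.917 of the range of the group, above the critical value of Dixon's test for 4 libraries at the 95% level. The mark was set on scaled TPM. As deposited, S1pr3 was at 0.88, 0.90, 0.67 and 0.99 TPM in PC replicates 1 to 4, so the others lay less close together. An estimated 26.5 reads stood behind the value of PC replicate 3. All 4 values were below those of the MBC libraries.

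Sphk1 stood at 0.802 scaled TPM in PC replicate 1 and was listed at 0 in the other PC libraries, so that the gap took the whole range (1.0). With all others at 0, any value above 0 gives that gap, so the mark of Sphk1 is no test of its size. The gene was at most 0.0975 in MBCs and did not pass the filter on low values. Of 29 results examined in the PC group these 2 were marked, where about 1.45 would be by chance.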

How the results depend on the processing

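S1pr3 kept its direction in the 18 alternatives in which it was tested and its call in 13 of them, with adjusted p from 0.0019 to 0.107. It was not tested when 1 TPM was asked of 4 libraries. Arhgef1 and Gpr183 kept their direction in all 19 and were called in 7 and 3. The number of the 8 genes called lower in PCs was 1, against 248 of all 11573 tested genes. It was 4 on the TPM as deposited, 2 with immunoglobulin genes removed and 2 after quantile normalization, against 3018, 431 and 460. It was 2 with a prefix term and 2 with library weights, against 316 and 180. It was 4 within the more frequent prefix and 0 with 1 TPM asked of 4 libraries, against 417 and 252. With 1 library left out it was 0 to 4, against 91 to 919.

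The median change of all genes was 0.14 after scaling and -0.91 on the TPM as deposited, -0.11 with immunoglobulin genes removed and -0.06 after quantile normalization. Relative to that median, S1pr3 lay between -2.91 and -2.67 over these 4 scalings, Arhgef1 between -2.38 and -1.98, Gpr183 between -1.85 and -1.54, S1pr1 between -0.87 and -0.48 and Cd69 between -0.06 and 0.40.

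Over all genes, 742 were called higher and 248 lower in PCs. The counts were 472 and 3018 on the TPM as deposited, 393 and 431 with immunoglobulin genes removed, and 437 and 123 with every gene above 0 tested. The lower calls were 460 after quantile normalization and 417 within the more frequent prefix. With 1 library left out the higher calls ran from 451 (without PC replicate 2) to 1592 (without MBC replicate 3), and the lower calls from 91 to 919 for the same libraries. The cause of these shifts was not tested.

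Correlations of deviations between same-numbered libraries were 0.109, -0.04 and -0.083, and between libraries of the same title code 0.109, -0.0044 and 0.222, so neither set was over 0.1 in every pair. The labels do not say whether a code marks an animal. A replicate block by number gave 393 higher and 64 lower calls, and one by title code gave 442 and 93. Both left out 1 PC library, and 0 of the 8 genes were called with either block (adjusted p of S1pr3 0.107 and 0.102).

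Signs turned in the following uncalled values. S1pr2 was -0.44 on the TPM as deposited and ran from -0.81 to 1.90 with 1 library left out. S1pr1 ran from -2.06 to 0.19 and S1pr4 from -0.64 to 0.27 with 1 library left out, and S1pr4 was 0.33 with library weights. Cd69 was -0.97 on the TPM as deposited, -0.18 within the more frequent prefix, -0.0068 with library weights and between -0.36 and 0.71 with 1 library left out. Rgs1 was -0.99 on the TPM as deposited, -0.0844 with immunoglobulin genes removed, -0.0154 after quantile normalization and -0.0343 with library weights. Foxo1 was 0.0027 after quantile normalization, 0.0388 with the title code block, and between -0.0542 and 0.0388 with 1 library left out.

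Shares of the S1P receptor pool in MBCs rested on MBC replicate 3. With 1 MBC library left out, the mean share ran from 31.5 to 63.6% for S1pr1 and from 8.01 to 45.8% for S1pr2.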
